A study of Oryza coarctata with 5 samples.

Results

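Oryza coarctata (Porteresia), a wild relative of rice from saline, tidally flooded shores, was sequenced after 5 treatments. The 100 transcripts described here stood higher at both salt doses, while in submergence in water they stayed below a set ceiling relative to control. They were chosen from 152367 transcripts listed, by their values in these same libraries. A transcript had to be above 0 in all 5 libraries and to reach an RPKM of at least 2 at both doses. RPKM counts a library's reads for each kilobase of a transcript and scales the count to the library's size. Its log2 ratio of submergence in water to control had to lie below 0.5, with 0.5 added to both RPKM values, as in every log2 ratio given here. These conditions were met by 30989 transcripts, called eligible below. Each was scored by the smaller of its log2 ratios to control at 450 mM and 700 mM NaCl, and the 100 highest scores were taken.

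The libraries came from mature plants collected in nature and kept in water (control), in 450 mM NaCl, in 700 mM NaCl, submerged in water, or submerged in 450 mM NaCl. Fresh water and salt water below stand for the 2 submerged treatments. Each treatment had 1 library, so nothing is known of the spread between plants, no test was possible, and every fold below compares 1 library with another. The labels give the tissue only as mature plant; how long treatments lasted and how many plants a library held is not stated there. In RNA from whole tissue, fewer cells of a type and less RNA per cell cannot be told apart.

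Salt in the root medium acts on a plant in stages: it first lowers the water potential and so holds back water uptake, and sodium and chloride then build up in the leaves. Plants that tolerate it keep sodium out of the cytosol by excreting it or storing it in the vacuole, and they make compatible solutes; leaves of O. coarctata also carry hairs that secrete salt. Submergence cuts the supply of oxygen and carbon dioxide and traps ethylene, and a tidal plant meets both stresses at the same time. The transcripts carry assembly numbers without gene names, so no pathway, function or tissue marker could be looked up. Several transcripts can belong to 1 gene, and near-identical copies in this polyploid species can share reads. No 2 members had neighbouring assembly numbers, the closest pair being 20 apart. Numbers alone cannot show whether members share a gene or reads, so this was not settled.

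The members were scarce transcripts, which the rule favoured in part, since the control value is the divisor in the score. Their median RPKM was 1.31 in the control, 4.04 and 5.12 at the rising doses, 0.654 in fresh water and 2.41 in salt water, against 6.98, 6.92, 7.05, 5.52 and 6.27 over the eligible transcripts. Only 3 members reached RPKM 10 in the control, and 34 stood below 1 there, against 11764 and 58 of the 30989 eligible transcripts. Their solved lengths ran from 201 to 4272 nt with a median of 507.5 nt, against 786 nt over the eligible transcripts. Read totals of the libraries lay between 56638113 and 78997383. Members had 5 to 5431 reads in the control (median 42, with 29 members under 20 reads) and 1 to 1297 in submergence in water (median 23, with 9 members at 3 reads or fewer). Of the 30989 eligible transcripts, 110 had under 20 reads in the control and 121 had 3 or fewer in submergence in water. Intervals below are exact 95% intervals for reads and cover counting error only.

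Across the 5 libraries the members formed 1 broad pattern, which the rule fixed in part. The highest value lay at 700 mM NaCl in 67 members, at 450 mM in 22 and in submergence in salt in 11, against 32.3%, 19% and 16.2% of eligible transcripts. The lowest lay in submergence in water in 80 members, in the control in 15 and in submergence in salt in 5, against 49%, 4.24% and 11.2%. The rule only asked that the log2 ratio of submergence in water to control be below 0.5. There 84 members were lower than control, as were 67.8% of eligible transcripts, and 32 were at least 2-fold lower, as were 19.1%. The other 16 were above control, 6 of them with an interval above 1, against 9986 and 5599 of the 30989 eligible transcripts. Their median log2 ratio of submergence in water to control was −0.81, against −0.26 over the eligible transcripts. Since the control value also enters the score, these ratios are a description of the chosen set.

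**Figure D1:**
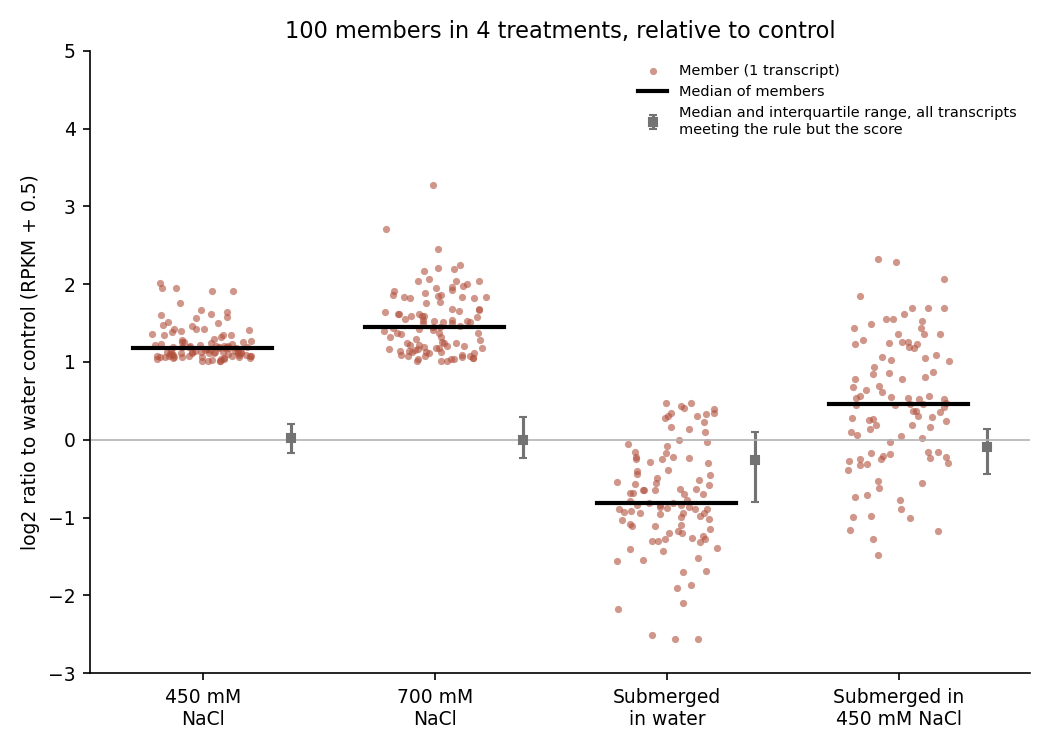
Log2 ratio to the water control (RPKM + 0.5) for each of the 100 members (points) in the 4 other treatments, with the median of the members (bars) and the median and interquartile range of the eligible transcripts (squares). Medians of the members lay at 1.18 and 1.45 at the salt doses, −0.81 in fresh water and 0.46 in salt water, where the members spread from −1.48 to 2.32.

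The 2 members with the highest scores differed widely in the number of reads behind their values. Pc_TC065940 (244 nt) stood at 0.434 RPKM in the control, 3.29 and 8.56 at the rising doses, 0.104 in fresh water and 2.35 in salt water. It thus followed the salt dose and was present in salt water, although its control value rested on 6 reads and its value in fresh water on 2. The fold over control was 7.57 at 450 mM (interval 3.24 to 21.7) and 19.7 at 700 mM (8.80 to 54.8). Pc_TC025763 (2081 nt) stood at 0.933 RPKM in the control (110 reads), 5.04 and 7.37 at the rising doses, 1.23 in fresh water and 3.51 in salt water. It was high in the 3 libraries with salt and low in the 2 without. Its fold over control was 5.40 at 450 mM (4.40 to 6.67), 7.90 at 700 mM (6.47 to 9.71) and 3.76 in submergence in salt (3.06 to 4.66).

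Another 2 of the 10 highest scores stood above control in salt water beyond counting error. Pc_TC045031 (471 nt) stood at 0.675 RPKM in the control, 3.09 and 4.76 at the rising doses, 0.994 in fresh water and 1.87 in salt water. Pc_TC038067 (1850 nt) stood at 0.744, 2.97, 3.11, 0.869 and 2.45 RPKM in the same order. In these 2 the control and fresh water differed by no more than counting error, and salt water lay above both. A further one, Pc_TC000464 (792 nt), stood at 1.07 RPKM in the control, 4.16 and 5.16 at the rising doses, 0.288 in fresh water and 1.43 in salt water. Its level in salt water could not be told from control at this depth (1.34-fold, 0.930 to 1.95).

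The other 5 of the 10 were low under water with or without salt. Pc_TC065252 (1083 nt) stood at 0.603 RPKM in the control, 3.64 and 3.84 at the rising doses, 0.0935 in fresh water and 0.173 in salt water. Pc_TC035619 (521 nt) stood at 0.508, 2.57, 6.11, 0.121 and 0.333 RPKM. Pc_TC018661 (802 nt) stood at 0.925, 4.04, 3.67, 0.300 and 0.133 RPKM. In these 3 both submerged libraries lay below the control, for Pc_TC035619 in salt water within counting error (0.287 to 1.48), and far below salt alone. Pc_TC139661 (455 nt) stood at 1.90 RPKM in the control, 7.02 and 6.28 at the rising doses, 0.473 in fresh water and 0.705 in salt water. Pc_TC069573 (217 nt) likewise was high at both doses alone, from few reads, 5, 27, 30, 2 and 5. Its level could not be told from control in fresh water (0.287-fold, 0.0273 to 1.75) or in salt water (0.757-fold, 0.174 to 3.29).

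**Figure D2:**
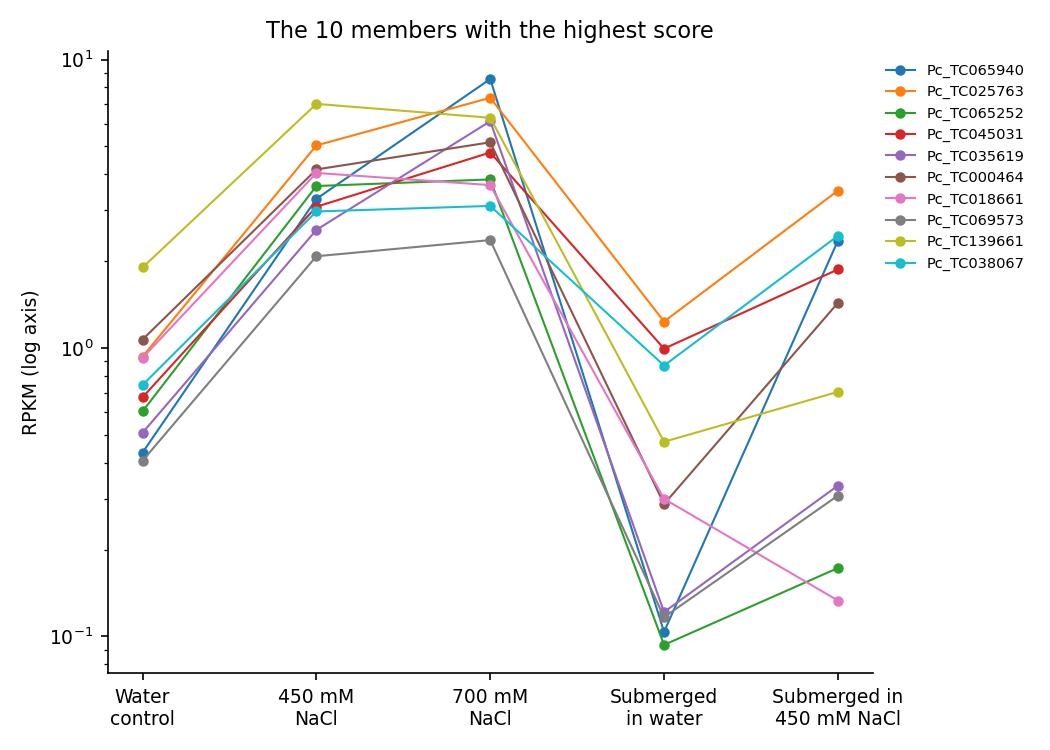
RPKM (log axis) of the 10 members with the highest scores in each of the 5 libraries, with lines joining the values of 1 transcript. All 10 peak at a salt dose, and in submergence in salt they spread from 0.133 to 3.51 RPKM.

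At the other end of the list the score was just past 2-fold. The members ranked 98 to 100, Pc_TC023467, Pc_TC080295 and Pc_TC100403, each scored 1.01, and the next transcripts outside, Pc_TC106948, Pc_TC150404 and Pc_TC038292, scored 1.01, 1.003 and 1.002. Nothing in these values separates the last members from the first ones left out. Pc_TC106948, for example, stood at 1.84 RPKM in the control and at 4.22 and 4.24 at the doses. Pc_TC038292 was much more abundant, at 16.3, 36.3 and 33.1 RPKM, and it was low in submergence in water (3.57) and back at 21.4 in submergence in salt.

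All 100 were at least 2-fold higher than control at each dose, which the rule made nearly certain; the share called was 0.632% of eligible transcripts at 450 mM (2.92% of all transcripts at RPKM 1 or more in either library) and 3.09% at 700 mM (4.52%). The median log2 ratio to control was 1.18 at 450 mM and 1.45 at 700 mM. The direct log2 ratio of 700 mM to 450 mM had a median of 0.16 and ran from −0.82 to 1.26, against a median of −0.01 over the eligible transcripts. It lay within 0.5 of zero in 64 members, at 0.5 or more in 34 and at −0.5 or less in 2, against 87.1%, 8.53% and 4.37% of eligible transcripts. Both doses entered the score through the smaller of their ratios, so the rule itself shaped the dose step, and the step is a description. With the 700 mM library left out of the rule, an alternative added after seeing the data, the 100 transcripts ranked highest at 450 mM alone had a median dose step of −0.51, and 37 of them were members.

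At a limit of 2-fold on RPKM + 0.5, 4 members were higher at 700 mM than at 450 mM, where 1.26% of eligible transcripts and 4% of all measurable ones were. None was 2-fold lower at 700 mM, where 0.239% of eligible transcripts were. With counting error alone, the interval of the ratio lay above 1 in 39 members, below 1 in 7 and included 1 in 54, against 24.8%, 25.1% and 50.1% of eligible transcripts. Members had fewer reads, with medians of 134 at 450 mM and 181.5 at 700 mM against 320 at each dose over the eligible transcripts. Their intervals were therefore generally wider, and these shares are not alike in depth.

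The 4 members past 2-fold on this scale were Pc_TC065940, Pc_TC045670, Pc_TC035619 and Pc_TC102435. Pc_TC045670 (255 nt) stood at 1.11 RPKM in the control, 2.75 and 6.85 at the rising doses, 0.397 in fresh water and 1.83 in salt water, and the step between doses was 2.49-fold (1.72 to 3.65). Pc_TC102435 (233 nt) stood at 6.97 RPKM in the control, 15.8 and 33.9 at the rising doses, 0.761 in fresh water and 5.85 in salt water, a step of 2.15-fold (1.83 to 2.54). For Pc_TC035619 the step was 2.38-fold (1.82 to 3.13) and for Pc_TC065940 it was 2.60-fold (1.85 to 3.71). All 4 were at least 2-fold lower in fresh water than in control by RPKM as deposited, for Pc_TC065940 from 2 reads, and in salt water they ranged from 0.656-fold of control (Pc_TC035619) to 5.42-fold (Pc_TC065940).

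On RPKM + 0.5, the 4 members with the lowest ratio of 700 mM to 450 mM were all longer than the median member. Pc_TC012333 (3065 nt) stood at 2.81 RPKM in the control, 12.2 and 6.73 at the rising doses, 1.54 in fresh water and 2.87 in salt water. Its 700 mM value was 0.549 of that at 450 mM (0.512 to 0.590), and in salt water it was back at the control level (1.02-fold, 0.909 to 1.15). Pc_TC030305 (1261 nt) stood at 11.4 RPKM in the control, 39.8 and 25.2 at the rising doses, 8.16 in fresh water and 30.1 in salt water. Here the level in salt water lay between those of the 2 doses. Pc_TC035594 (1620 nt) stood at 0.839, 4.55, 3.08, 1.27 and 1.29 RPKM, and Pc_TC023467 (779 nt) at 11.9, 31.8, 24.5, 6.21 and 13.6 RPKM. In both, the interval of 700 mM over 450 mM lay below 1 (0.583 to 0.788 and 0.712 to 0.833).

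**Figure D3:**
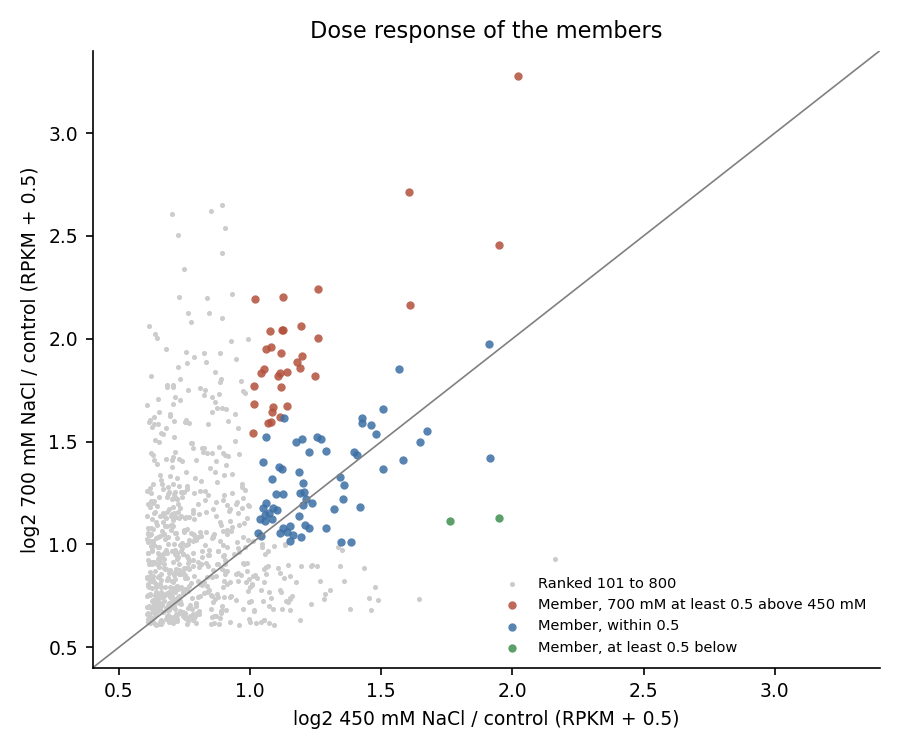
Log2 ratio to control at 450 mM NaCl (x axis) and at 700 mM NaCl (y axis), both on RPKM + 0.5, for the 100 members (coloured by the ratio of 700 mM to 450 mM) and the transcripts ranked 101 to 800 (grey); the line marks equal ratios. The 34 red members lie 0.5 or more above equality of the doses, the 64 blue ones within 0.5 and the 2 green ones 0.5 or more below.

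By far the most abundant member was Pc_TC066689 (1032 nt). Its level was 92.9 RPKM in the control (5431 reads), 203 at 450 mM, 384 at 700 mM (23136 reads), 15.9 in fresh water and 33.1 in salt water. The level was about 2-fold higher with each dose step and clearly below control in both submerged libraries. Its fold over control was 2.19 at 450 mM (2.12 to 2.26) and 4.13 at 700 mM (4.01 to 4.25), and its level was 5.84-fold lower in submergence in water (5.50 to 6.21) and 2.81-fold lower in submergence in salt (2.68 to 2.95). Even under water the library with salt held more of it than the one without, 2.08-fold (1.94 to 2.22). It was 6.14-fold lower in salt water than in 450 mM NaCl without submergence (5.89 to 6.41).

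What submergence in 450 mM NaCl did to the members was the one outcome that the rule left nearly free, since it asked only for a value above 0 there. The members spread widely. In 30 of the 100 the level in salt water was at least 2-fold above control, where 0.755% of eligible transcripts and 3.65% of all measurable ones were. Another 18 lay between 0.5 and 1 above control on the log2 scale, 38 within 0.5 of control and 14 at 0.5 or more below it, against 4.13%, 73.3% and 21.8% of eligible transcripts. The median log2 ratio to control was 0.46, against −0.10 over the eligible transcripts, and 71 members were above control, as were 39.5% of eligible transcripts. This ratio uses the same control library as the score, so a control value that was low by accident raises both, and the size of that effect was not measured. When a control RPKM of at least 1 was required, 24 of the 100 transcripts then picked were at least 2-fold above control, and 66 of the 100 were members. They were picked by the same score, so this does not remove the effect of the shared control.

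The share was larger at higher scores. Among the members ranked 1 to 50 it was 34% and among those ranked 51 to 100 it was 26%. Among the transcripts ranked 101 to 200 it was 18%, among those ranked 201 to 400 it was 13% and among those ranked 401 to 800 it was 5%. A control value that was low by accident raises both the score and this ratio, and how much of the gradient comes from that was not measured. By these shares the list of 100 has no edge.

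The members were generally lower in salt water than in the same salt without submergence. At a limit of 2-fold, 37 were lower, where 10.5% of eligible transcripts and 8.68% of all measurable ones were, and 1 was higher, where 0.458% of eligible transcripts were. The median log2 ratio was −0.67, against −0.11 over the eligible transcripts, and 81 members lay below 450 mM NaCl, as did 59% of eligible transcripts. The 450 mM value was picked for being high, which by itself lowers any ratio to it; how much of the difference belongs to this choice was not measured. Within 0.5 of the 450 mM level stood 35 members, against 67.5% of eligible transcripts. In 50 members the level in salt water lay between the control and the lower of the 2 salt doses, as in 5.32% of eligible transcripts, a range that the rule itself made wide for the members.

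On RPKM + 0.5, the 4 members lowest in salt water relative to 450 mM NaCl were Pc_TC018661, Pc_TC139661, Pc_TC065252 and Pc_TC066689. Pc_TC018661 was 30.4-fold lower (15.1 to 71.3), from 194 reads to 8. For Pc_TC065252 the level was 21.1-fold lower (12.3 to 39.2), and for Pc_TC139661 it was 9.96-fold lower (6.50 to 15.9). Relative to control, on the same scale, 5 members were at least 2-fold lower in salt water, where 7.96% of eligible transcripts were. They were Pc_TC018661, Pc_TC066689, Pc_TC082280, Pc_TC104373 and Pc_TC031055, the last 3 of which are named here because of these values. Pc_TC104373 (1854 nt), the best covered of those 3, stood at 1.01 RPKM in the control, 2.80 and 4.12 at the rising doses, 0.205 in fresh water and 0.252 in salt water. Both submerged libraries were low and close to each other.

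At the opposite end, 11 members had their highest value of all 5 libraries in salt water. Pc_TC005654 (1178 nt) stood at 1.86 RPKM in the control, 4.74 and 4.52 at the rising doses, 1.48 in fresh water and 11.0 in salt water. It was the 1 member at least 2-fold higher in salt water than at 450 mM on RPKM + 0.5 (2.33-fold by RPKM, 2.05 to 2.64). Its level in fresh water could not be told from control at this depth (0.798-fold, 0.622 to 1.03). Pc_TC034807 (2528 nt) stood at 1.59 RPKM in the control, 4.03 and 3.85 at the rising doses, 0.711 in fresh water and 6.29 in salt water. Its level was 2.24-fold lower than control in fresh water (1.81 to 2.78) and 3.95-fold higher in salt water (3.42 to 4.57). These 2 had about equal levels at the 2 salt doses, with a further step in salt water.

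Pc_TC100403 (212 nt) and Pc_TC138617 (255 nt) were likewise highest in salt water, from fewer reads in all. Pc_TC100403 stood at 2.83 RPKM in the control, 7.96 and 6.22 at the rising doses, 4.12 in fresh water and 16.1 in salt water. Pc_TC138617 stood at 0.900, 3.21, 3.29, 0.844 and 5.34 RPKM. Over 450 mM NaCl, the fold in salt water was 2.03 (1.60 to 2.58) for Pc_TC100403 and 1.66 (1.17 to 2.39) for Pc_TC138617.

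**Figure D4:**
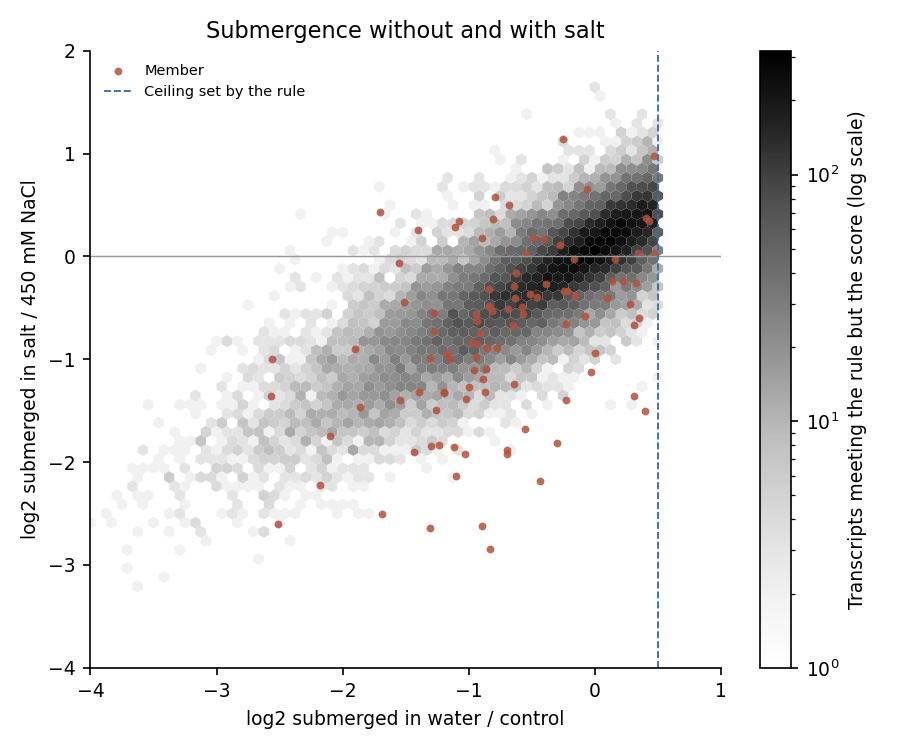
Log2 ratio of submergence in water to control (x axis) and of submergence in salt to 450 mM NaCl (y axis), on RPKM + 0.5, for the members (red points) and the density of the eligible transcripts (grey, log scale); the dashed line is the ceiling of 0.5 that the rule set. Most members lie below zero on both axes, and several lie under the main body of eligible transcripts.

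Submergence without and with salt was compared in 2 contrasts that share no library. Of the 32 members at least 2-fold lower in fresh water than in control, 20 (62.5%) were also at least 2-fold lower in salt water than at 450 mM NaCl, against 47.4% of the 5910 eligible transcripts in the same range in fresh water. Of the other 68 members 17 (25%) were lower in salt water, against 1.75% of 25079 eligible transcripts. Across the 100 members the Pearson correlation of the 2 log2 ratios was 0.43 and the Spearman correlation 0.45, and across the 30989 eligible transcripts these were 0.81 and 0.77. The points share the libraries' depth, and both axes are cut by the choice of members, so these coefficients only describe the set.

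Salt against no salt was also compared under water. In submergence in salt 95 members stood higher than in submergence in water, as did 66.4% of eligible transcripts, and 64 were at least 2-fold higher, where 8.59% of eligible transcripts and 4.88% of all measurable ones were. None was 2-fold lower, where 0.203% of eligible transcripts were. The median log2 ratio was 1.13, against 0.15 over the eligible transcripts. This contrast shares no library with the 2 salt contrasts of the score, but the ceiling on submergence in water favoured members that were low there. Among the members at least 2-fold lower in fresh water than in control, 21 of 32 (65.6%) were 2-fold higher with salt, against 34.6% of eligible transcripts in the same range. Among the rest 43 of 68 (63.2%) were, against 2.46%. By rank, the share was 56% for members 1 to 50, 72% for members 51 to 100 and between 41.5% and 46% in the 3 groups from rank 101 to rank 800.

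**Figure D5:**
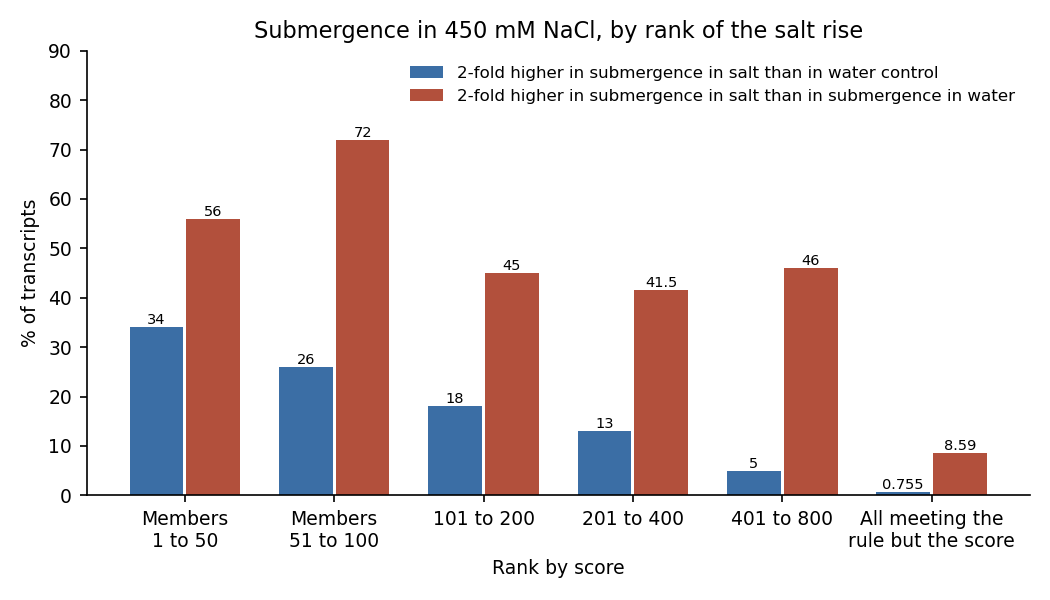
Share of transcripts (%) at least 2-fold higher in submergence in 450 mM NaCl than in the water control (blue) and than in submergence in water (red), by rank of the score, with all eligible transcripts at the right. The blue share, which uses the same control library as the score, goes from 34% in the first 50 members to 5% at ranks 401 to 800. The red one stays between 41.5% and 72% over all rank groups, against 8.59% of eligible transcripts.

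On RPKM + 0.5, the 3 members with the highest ratio of salt water to fresh water had 6 to 14 reads in fresh water. By RPKM alone Pc_TC031346, named for this value, stood between them at 25.9-fold (14.6 to 50.8). Pc_TC076720 (930 nt) stood at 1.75 RPKM in the control, 4.87 and 8.52 at the rising doses, 0.191 in fresh water from 14 reads and 6.76 in salt water from 471 reads. Its level was 9.17-fold lower than control in fresh water (5.19 to 17.4) but 35.5-fold higher in salt water than in fresh water (20.9 to 65.4), which placed it between the 2 salt doses. Pc_TC111098 (453 nt) stood at 1.64, 5.90, 5.18, 0.307 and 7.16 RPKM in the same order, 23.3-fold higher in salt water than in fresh water (12.8 to 47.3). Pc_TC116510 (388 nt) stood at 3.59, 9.52, 8.16, 0.196 and 4.51 RPKM, with 6 reads in fresh water and 131 in salt water. The first 2 were as high in salt water as in salt alone, and Pc_TC116510 was near its control level there (1.25-fold, 0.942 to 1.68).

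Only 5 members were lower in salt water than in fresh water, and in 3 of them the difference was within counting error. Pc_TC148743 (1428 nt) stood at 0.729 RPKM in the control, 2.32 and 3.01 at the rising doses, 0.408 in fresh water and 0.122 in salt water, a level 3.35-fold lower in salt water than in fresh water (1.78 to 6.77). For Pc_TC018661 the same ratio was 2.25-fold lower with an interval of 0.941 to 5.94, and for Pc_TC138539 (244 nt; 0.868, 2.33, 2.60, 1.19 and 0.602 RPKM) it was 1.98-fold lower (0.928 to 4.50). The other 2, named for this value, were Pc_TC037467 at 2.48 RPKM in fresh and 1.87 in salt water and Pc_TC056976 at 0.738 and 0.719.

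Salt water was also compared with what 450 mM NaCl and fresh water would give if their log2 ratios were added. The members' log2 ratio of salt water to control differed from the summed ratios of 450 mM NaCl and fresh water by a median of −0.04 (interquartile range −0.50 to 0.39), against 0.18 (−0.03 to 0.43) over the eligible transcripts. The departure was at least 1 upward in 14 members and at least 1 downward in 13, compared with 1820 and 117 of 30989 eligible transcripts. It reached 2 on the log2 scale in Pc_TC076720 (2.14 upward) and −2.01 in Pc_TC018661. All 3 parts of this sum use the control library that chose the members, and its 450 mM and fresh water values were also used to choose them. How far that choice moves the departure was not measured.

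Some transcripts as high as the members at both doses, or higher, were also higher in fresh water. Among transcripts that met the rule's other conditions, 23 had a score at least that of the last member and a log2 ratio of submergence in water to control of 0.5 or more. How many met those conditions at that ratio whatever their score was not counted. No background share is therefore given beside the 23 or the counts below. Pc_TC079114 and Pc_TC037465, named here for their scores of 3.21 and 2.11, lay above the highest score of a member, 2.02. Control levels of the 23 were similar to those of the members, with a median RPKM of 1.25. Medians of the 23 were 4.76 and 6.46 at the rising doses, 3.73 in fresh water and 3.58 in salt water. In salt water 15 of the 23 (65.2%) were at least 2-fold above control, against 30 of the 100 members, and 3 (13%) were at least 2-fold below 450 mM NaCl, against 37 of the 100. Salt water against fresh water gave 1 of 23 at least 2-fold higher, against 64 of the 100. The split between the lists by fresh water fixes part of these differences, and they were not tested.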

How the data were processed

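RNA-sequencing of 5 libraries, 1 per treatment, was used as deposited. The deposited values are RPKM, which the authors calculated per assembled transcript after read filtering with NGS QC Toolkit, per the series text; the mapping program, its version and the assembly are not named there. Whole reads, transcript lengths (200 nt or more) and read totals were solved from the steps of the RPKM values (all 152263 transcripts above 0 in any library, with 0.01 of a read as tolerance) and served only for lengths and counting intervals. For some transcripts the true numbers can be multiples of the solved ones. The recovery and the rule were tested on simulated data. The simulated reads took the solved lengths as true, so that test could not show whether those lengths are right for these libraries.

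Members were found by the rule given above. Calls are by size: 2-fold up or down on RPKM + 0.5 (1 on the log2 scale), with no test, as each treatment has 1 library. Background shares are over the 30989 eligible transcripts, or over transcripts at RPKM 1 or more in either library. Fold values are RPKM ratios with exact (Clopper-Pearson) 95% intervals. The members, lists and limits were chosen with earlier results of these data known. Transcripts were named by rank: scores 1 to 10 and 98 to 103, the 3 highest mean RPKM, and the highest and lowest 4 (dose step, salt water against 450 mM) or 3 (salt water against fresh water); a few others, marked as such, were named for their values. Alternatives were pseudocounts of 0.1 and 1, salt minimums of 1 and 5, zeros allowed, ceilings of 0 and 1, median-of-ratios scaling, a control minimum of 1 and calls beyond counting error. Computation used Python 3.11.15, NumPy 2.4.6, pandas 2.3.3 and SciPy 1.17.1.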

Additional observations from a re-analysis of the deposited data

How the results depend on the processing

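No paired analysis was possible because each treatment had 1 library. In all, 10 values were followed over the settings: how many members stayed the same, 5 counts and 4 medians. Membership itself moved most: 53 and 33 of the 100 members were shared at salt minimums of RPKM 1 and 5, 66 with a control RPKM of at least 1, and 83 to 97 under the other settings fixed beforehand. The counts and medians that follow are over the 100 transcripts that each setting picked. Over all settings, 23 to 34 were at least 2-fold higher in salt water than in control. At the same limit, 31 to 48 were lower in salt water than at 450 mM NaCl, and 44 to 71 were higher in salt water than in fresh water. The median of salt water to fresh water was 1.51 and 0.99 with pseudocounts of 0.1 and 1, and 0.87 and 1.39 at salt minimums of 1 and 5. At those minimums 9 and 7 transcripts were at least 2-fold higher at 700 mM than at 450 mM. The median of salt water to control was 0.23 at a salt minimum of 5. A single transcript was at least 2-fold lower at 700 mM than at 450 mM with a pseudocount of 1, and likewise 1 at a salt minimum of 5. Median-of-ratios scaling, with a log2 factor of −0.15 for 700 mM relative to control, kept 89 members. Asking that the interval also exclude 1 could remove nothing, since every 2-fold call, among eligible transcripts too, already did, so it is no check of the counts. A setting chosen after seeing the data left the 700 mM library out of the rule, and 37 members were shared. The median of salt water to fresh water was then 0.85. The median of 700 mM to 450 mM turned to −0.51, with 2 of the transcripts picked at least 2-fold higher at 700 mM and 25 at least 2-fold lower. This turn follows from the construction, since the transcripts picked then need not be high at 700 mM. Depth limits the members most in the control and in fresh water.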
